A study of Homo sapiens with 6 samples.

Results

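The carbonic anhydrase family was followed in human DLD-1 cells, a line grown from a colorectal cancer, after knockdown of the aryl hydrocarbon receptor gene AHR. The 7 genes CA2, CA13, CA8, CA5B, CA9, CA12 and CA11, out of 60483 genes listed, were picked by symbol and chosen on results of these same libraries, with the AHR siRNA contrast in view. Their differences between the groups are therefore given as a description, without p-values. The study held 3 libraries of cells transfected with AHR siRNA and 3 of cells transfected with control siRNA, all of 1 line that the labels place at passages 16-19. Neither group carries another alteration in the labels, and the siRNA sequences and the time from transfection to harvest are not stated there. Total RNA was taken for sequencing, and each library is a list of read counts per gene.

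Carbonic anhydrases are zinc enzymes that interconvert carbon dioxide and bicarbonate with a proton, and so supply ion exchangers and buffer pH on both sides of the cell membrane. In the colon, cytosolic CA2 is known from the surface epithelium, where it feeds bicarbonate secretion and salt absorption. CA9 and CA12 are membrane enzymes with their active site outside the cell, and both are known as genes induced by hypoxia in tumours. CA5B is a mitochondrial form and CA13 a cytosolic one. CA8 and CA11 are related proteins that lack enzyme activity.

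RefSeq promoter windows were available for 3 of the 7 genes, and they are shown because AHR and the hypoxia-inducible factors (HIF) read short core words there. The word GCGTG is the core of the site bound by AHR with its partner ARNT, and HIF reads both it and ACGTG. Each window runs over the 250 bases before the annotated start, 5′ to 3′ on the strand of the gene, and capitals mark every match of either word on either strand (CACGC and CACGT are the same words on the other strand). They lie in GRCh38.p14 at chr9:35673678-35673927 on the plus strand for CA9, at chr15:63381847-63382096 on the minus strand for CA12 and at chrX:15738020-15738269 on the plus strand for CA5B.
CA9: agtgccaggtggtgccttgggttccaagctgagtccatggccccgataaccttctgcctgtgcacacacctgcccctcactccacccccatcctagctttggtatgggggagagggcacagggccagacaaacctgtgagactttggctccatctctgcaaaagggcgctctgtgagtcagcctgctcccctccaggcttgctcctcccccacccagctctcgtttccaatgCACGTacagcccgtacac
CA12: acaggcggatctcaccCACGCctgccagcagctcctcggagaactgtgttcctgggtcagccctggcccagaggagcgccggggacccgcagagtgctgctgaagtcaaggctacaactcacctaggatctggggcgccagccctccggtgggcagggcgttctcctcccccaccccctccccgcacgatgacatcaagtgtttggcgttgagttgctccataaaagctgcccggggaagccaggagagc
CA5B: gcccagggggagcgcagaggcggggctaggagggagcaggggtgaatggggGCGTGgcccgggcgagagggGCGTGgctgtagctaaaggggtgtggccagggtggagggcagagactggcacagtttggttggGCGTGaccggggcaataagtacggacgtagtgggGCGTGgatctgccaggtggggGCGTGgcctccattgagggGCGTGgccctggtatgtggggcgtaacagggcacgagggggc

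The CA9 window held 1 ACGTG, 18 to 14 bases before the start, and no GCGTG. CA12 held 1 GCGTG, 234 to 230 bases before the start, and CA5B held 6, the nearest at 42 to 38 bases. Of 35116 promoter windows of this length, 32.2% held GCGTG and 18.5% held ACGTG, so a match in a window is common and is a description of its letters alone. The windows of CA2, CA8, CA11 and CA13 are not shown.

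The knockdown was partial. AHR stood at 95.8, 87.4 and 94.95 CPM (read counts scaled to the size of the library) in the AHR siRNA libraries and at 117, 144 and 132 CPM in the control siRNA libraries. The AHR siRNA cells retained 70.9% of the control level, and its log2 fold change was -0.50 (SE 0.08) at an adjusted p = 1.98e-05 by edgeR. The log2 fold change of AHR was -0.35 when scaled by library totals alone, and -0.58 to -0.43 with 1 library left out. The libraries held 11567736 to 12937058 counts with AHR siRNA and 13585529 to 15037145 with control siRNA, and 3 counts in a library, used here as the floor, are worth 0.207 to 0.248 CPM. Of the 10 colorectal epithelial markers, 8 passed the filter on low counts, of which EPCAM, KRT8, KRT18, CDH1 and CDX2 were called lower by edgeR, VIL1 higher, and KRT19 and CDH17 neither, while CDX1 and GPA33 had at most 10 counts in any library. The 10 together summed to 8090 to 8420 CPM with AHR siRNA and 11700 to 13200 CPM with control siRNA. Most of that sum was KRT8, at 3902 ± 91 CPM with AHR siRNA and 6359 ± 485 CPM with control siRNA, and KRT18, at 1756 ± 66 and 2829 ± 271 CPM in that order (SD, n = 3 each). The 5 fibroblast, 5 leukocyte, 3 endothelial and 5 erythroid markers summed to at most 3.31, 0.675, 2.4 and 1.91 CPM in any library, with DCN at 0 throughout. The summed levels of the endothelial markers were 2.13 to 2.4 CPM with AHR siRNA and 1.31 to 1.95 CPM with control siRNA. That gap came from VWF alone, at 2.22 ± 0.09 and 1.22 ± 0.29 CPM in that order. PECAM1 (0.03 and 0.28 CPM) and CDH5 (0 and 0.05 CPM) went the other way, on too few counts to test. The part of the epithelial and endothelial marker lists in the results was not tested.

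Only part of the family was transcribed at a level that could be compared, and the members that could be compared went in different directions. The filter on low counts was passed by 5 of the 7 genes. CA2 and CA13, the cytosolic enzymes, were lower in AHR siRNA cells, CA11 was higher, and CA5B and CA12 stayed within the spread between libraries. CA9 and CA8 were at or under the floor in every library. edgeR called 2 of the 5 tested genes lower and 1 higher at an adjusted p under 0.05. Of all 14900 tested genes it called 60.1%, 30.1% lower and 30.0% higher. For 3 of the 5 the libraries of both groups were fully apart, against 63.7% of all tested genes. Since the genes were chosen on this contrast, nothing is read from these counts. The median log2 fold change of the 5 was -0.05, beside 0.01 for all tested genes.

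**Figure D1:**
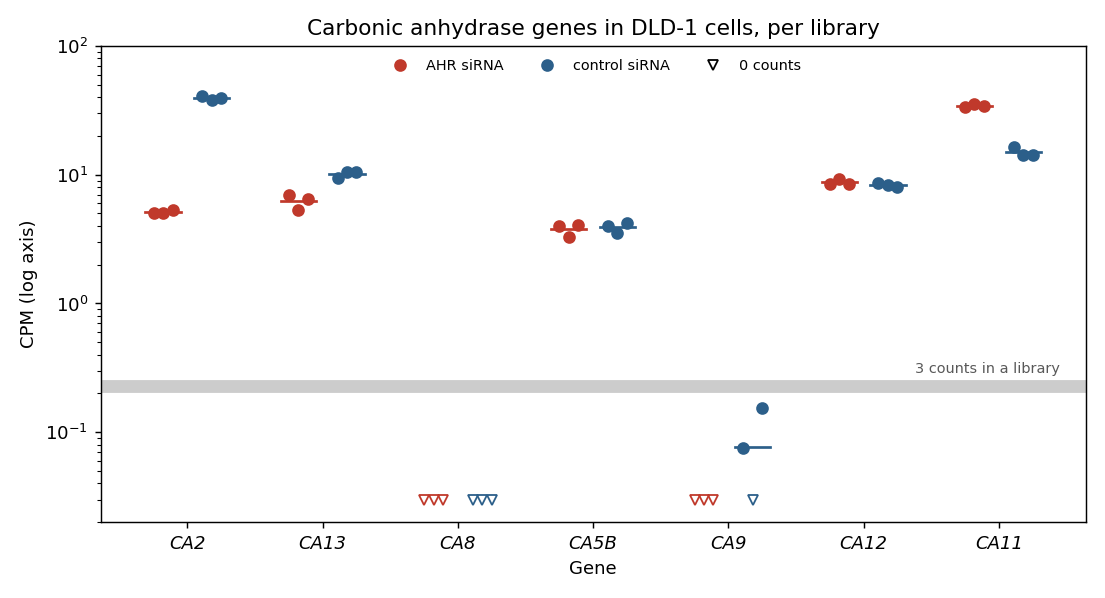
CPM on a log axis for the 7 carbonic anhydrase genes, with 1 point per library, AHR siRNA left of control siRNA, lines at group means and open triangles for libraries with 0 counts. CA2 lay near 5 CPM in the AHR siRNA libraries and near 40 CPM in the control siRNA libraries, CA11 moved the other way, and CA8 and CA9 lay under the grey band that marks 3 counts in a library.

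CA2 encodes the fast cytosolic enzyme of the colon surface, and of the 7 genes it showed the widest gap between the groups. It had 61, 69 and 73 counts in the AHR siRNA libraries, against 549, 550 and 511 counts in the control siRNA libraries. In CPM these were 5.05, 5.07 and 5.36 with AHR siRNA and 41.2, 38.0 and 39.3 with control siRNA. The libraries of each group lay close together, and the lowest control library was several times above the highest AHR siRNA library. The means were 5.16 ± 0.17 CPM with AHR siRNA and 39.5 ± 1.6 CPM with control siRNA (SD, n = 3 each), so that 13.1% of the control level remained, with a log2 fold change of -2.93 (SE 0.10). Only 11 of the 14900 tested genes had a lower log2 fold change than CA2, and 43 had a larger one in size. In bulk RNA, fewer cells that express a gene and less of its RNA per cell cannot be told apart.

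CA13, the other cytosolic form, was lower by a smaller amount. It stood at 6.96, 5.30 and 6.46 CPM in the AHR siRNA libraries and at 9.38, 10.4 and 10.5 CPM in the control siRNA libraries. The groups did not overlap, and replicate 1 was the closest to the other group on both sides. The means were 6.24 ± 0.85 CPM with AHR siRNA and 10.1 ± 0.64 CPM with control siRNA (SD, n = 3 each), 61.7% of control, with a log2 fold change of -0.70 (SE 0.14). A larger change in size was seen for 25.5% of all tested genes.

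CA13 and CA2 lie in the same cluster on chromosome 8, with CA1 and CA3 between them. Those neighbours gave too few counts to test: CA1 had at most 2 counts and CA3 at most 5 in any library. CA2 was the next tested gene after CA13 on that side, and on the other side the next tested gene, C8orf59, had a log2 fold change of -0.17 (SE 0.09, adjusted p = 0.127 by edgeR). Counts over 6 libraries on antisense genes that overlap the pair were 9 for CA3-AS1 and 4 for AC011773.3. Set against each other within a library, which needs no scaling, there were 0.726 to 0.958 CA2 counts per CA13 count with AHR siRNA and 3.64 to 4.39 with control siRNA. Both genes were lower with AHR siRNA, and the ratio between them was lower too.

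The 3' UTR words GACTTAA and CACAACA had been picked on these same fold changes, and they were looked up in the family as a description. Of the 12418 tested genes with an annotated 3' UTR, 19.8% held at least 1 of them. Among those, 43.9% were called lower and 25.1% higher, against 31.3% lower and 31.6% higher among genes with neither. Given how the words were picked, nothing is read from this gap, and the genes were not matched for 3' UTR length. Neither word occurred in the longest annotated 3' UTR of CA2 or CA13, nor in that of CA5B, CA9, CA11 or CA12. CA8, the gene with 0 counts, held 1 of each.

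CA11 encodes a secreted carbonic anhydrase-related protein without enzyme activity, best known from brain. It had 405, 478 and 467 counts in the AHR siRNA libraries, against 218, 205 and 185 counts in the control siRNA libraries. In CPM these were 33.5, 35.2 and 34.3 with AHR siRNA and 16.4, 14.1 and 14.2 with control siRNA. Every AHR siRNA library was above every control library, and control siRNA replicate 1 was the highest of its group. The means were 34.3 ± 0.80 CPM with AHR siRNA and 14.9 ± 1.3 CPM with control siRNA (SD, n = 3 each), 230.2% of control, with a log2 fold change of 1.20 (SE 0.09). A larger change in size was seen for 8.39% of all tested genes.

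No change was detected in the genes next to CA11. DBP, a clock-controlled transcription factor gene 504 bases away on the same strand, had a log2 fold change of -0.24 (SE 0.13) at an adjusted p = 0.132 by edgeR, and NTN5 one of 0.05 (SE 0.35) at 0.908. SEC1P, a pseudogene that overlaps CA11 on the other strand, had 22 counts over the 6 libraries. No source used here says whether reads were counted by strand, and reads of overlapping genes on opposite strands cannot be told apart.

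CA2 and CA11 exchanged places as the most abundant transcript of the family. Per library there were 6.4, 6.64 and 6.93 CA11 counts for each CA2 count with AHR siRNA (lowest, median and highest), and 0.362, 0.373 and 0.397 with control siRNA. Levels between genes were compared as CPM per kilobase of the median annotated transcript length. On that scale CA11 stood at 78.1 ± 1.8 in AHR siRNA cells and 33.9 ± 2.8 in control siRNA cells, and CA2 at 7.47 ± 0.25 and 57.1 ± 2.3 in the same order of groups (SD, n = 3 each). With AHR siRNA the order of levels was CA11, CA2, CA13, CA5B and CA12, where CA2, CA13 (7.21 ± 0.99) and CA5B (6.90 ± 0.74) overlapped between libraries and CA12 (5.59 ± 0.32) lay just below them. With control siRNA the order was CA2, CA11, CA13 (11.7 ± 0.74), CA5B (7.15 ± 0.66) and CA12 (5.30 ± 0.20), and no neighbours in it overlapped.

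The share of the family's summed level per kilobase that CA2 held was 7.10 ± 0.19% with AHR siRNA and 49.6 ± 0.13% with control siRNA, and the share of CA11 was 74.2 ± 1.5% and 29.4 ± 1.3% in that order (SD, n = 3 each). With the longest annotated transcript as the length, CA2 held 11.9% with AHR siRNA and 64.5% with control siRNA, and CA11 held 73.9% and 22.7%. The exchange of places between CA2 and CA11 stood under both lengths, while CA5B moved below CA12 in both groups. In AHR siRNA cells CA2 (3.01 ± 0.10) no longer overlapped CA13 (1.64 ± 0.22) or CA5B (0.55 ± 0.06). The closeness of CA2, CA13 and CA5B by median length thus depends on the length used. For CA5B the median and longest lengths were 547 and 6835 bases, and for CA2 691 and 1717 bases. The summed level of the 7 genes was 105 ± 0.88 with AHR siRNA and 115 ± 4.9 with control siRNA by median length, and 25.2 ± 0.28 and 35.6 ± 1.5 by longest length (CPM per kilobase; SD, n = 3 each). Most of the sum in AHR siRNA cells came from CA11, which encodes no active enzyme.

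**Figure D2:**
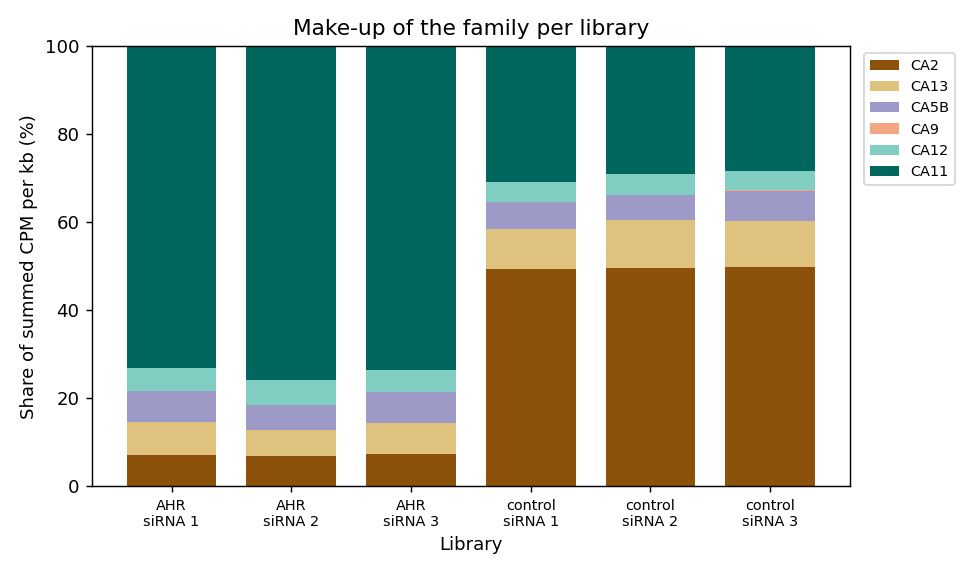
Share of each gene in the summed CPM per kilobase of the family (percent, median transcript length), 1 bar per library, AHR siRNA libraries left of control siRNA libraries. CA11 held 74.2% on average in the AHR siRNA libraries and 29.4% in the control siRNA libraries, and CA2 held 7.10% and 49.6% in that order; CA8, at 0 in every library, has no segment.

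CA12, the membrane enzyme that faces the outside of the cell, differed by less than the spread between libraries. It had 102, 127 and 116 counts in the AHR siRNA libraries, against 115, 120 and 104 counts with control siRNA, so that the groups overlapped. The means were 8.77 ± 0.50 CPM with AHR siRNA and 8.30 ± 0.31 CPM with control siRNA (SD, n = 3 each). The log2 fold change was 0.08 (SE 0.13), with a 95% interval of -0.19 to 0.35, and 88.2% of all tested genes had a larger change in size. Set against it within each library, CA2 had 0.543 to 0.629 counts per CA12 count with AHR siRNA and 4.58 to 4.91 with control siRNA.

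CA9, the membrane form used as a marker of tumour hypoxia, was close to absent from the counts. It had 0, 0 and 0 counts in the AHR siRNA libraries and 1, 0 and 2 counts in the control siRNA libraries, all under the floor of 3, and no fold is given. At this depth a level of up to 0.22 to 0.248 CPM in the AHR siRNA libraries would have been missed. ARHGEF39, which overlaps CA9 on the other strand, held 1642 counts over the 6 libraries and had a log2 fold change of -0.92 (SE 0.10) at an adjusted p = 1.16e-07 by edgeR. How reads in the stretch shared with CA9 were counted is not stated, so the limit given for CA9 covers depth alone.

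CA5B, the mitochondrial enzyme, also differed by less than the spread between libraries. It stood at 3.98, 3.31 and 4.04 CPM in the AHR siRNA libraries and at 3.98, 3.52 and 4.23 CPM in the control siRNA libraries, with the lowest value in replicate 2 of each group and overlap between the groups. The log2 fold change was -0.05 (SE 0.19), with a 95% interval of -0.44 to 0.35, and it changed its sign with the scaling of the libraries. CA5BP1, a transcribed near copy that overlaps CA5B on the same strand, averaged 7.99 ± 1.85 CPM with AHR siRNA and 7.40 ± 1.49 CPM with control siRNA (SD, n = 3 each; log2 fold change 0.11, SE 0.18, edgeR adjusted p = 0.632). Reads shared by the copies make the separate values of both uncertain. With the counts of both summed, the log2 fold change was 0.05.

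CA8, a protein without enzyme activity that binds the inositol trisphosphate receptor ITPR1 in neurons, had 0 counts in all 6 libraries, which allows at most 3 counts in each. The nearest tested genes on its 2 sides were NSMAF, 1527503 bases away, and RAB2A, 235445 bases away. NSMAF had a log2 fold change of 0.60 (SE 0.07) at an adjusted p = 3.15e-07 by edgeR, and RAB2A one of -0.38 (SE 0.08) at 0.000367. Of the receptor genes, ITPR2 rose to 179 ± 12 CPM with AHR siRNA, against 65.0 ± 4.8 CPM with control siRNA (SD, n = 3 each; log2 fold change 1.46, SE 0.08, edgeR adjusted p = 1.08e-11). ITPR3 fell to 129 ± 20 CPM, against 243 ± 44 CPM (log2 fold change -0.91, SE 0.11, edgeR adjusted p = 1.06e-06). ITPR1, the partner of CA8, named after its value was seen, was low at 1.88 ± 0.56 CPM with AHR siRNA and 1.98 ± 0.43 CPM with control siRNA (edgeR adjusted p = 0.868).

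None of the 8 other carbonic anhydrase genes passed the filter. CA14, a membrane enzyme, had 7, 8 and 5 counts in the AHR siRNA libraries and 14, 13 and 9 counts in the control siRNA libraries. Its groups did not overlap, but in a fit with no filter its log2 fold change of -0.79 (SE 0.46) had an edgeR adjusted p = 0.214. CA1 and CA4, which with CA2 mark the mature colon surface, had at most 2 counts in any library. CA3, CA5A, CA6, CA7 and CA10 had at most 5 counts in any library, and CA6 had 0 in all.

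**Figure D3:**
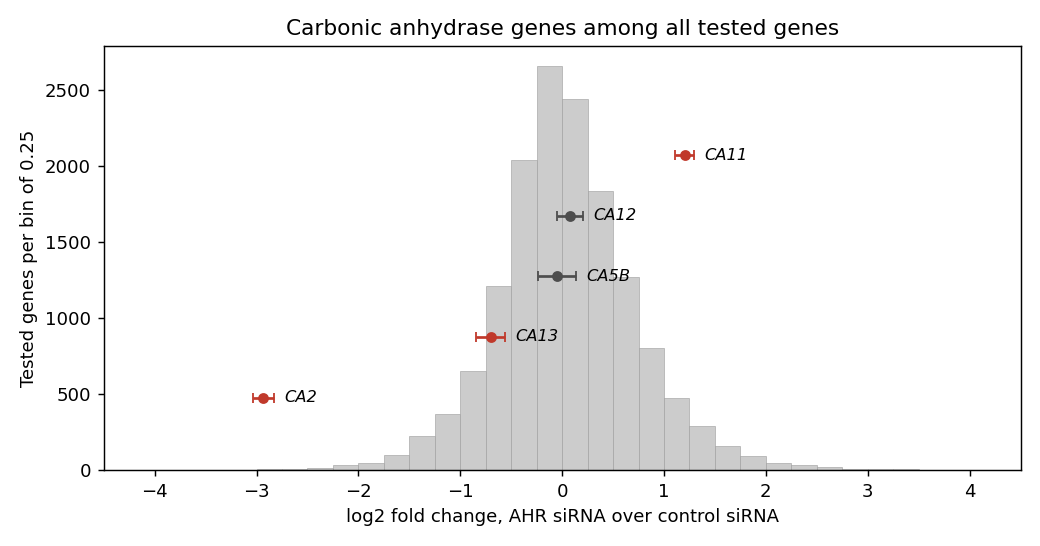
The log2 fold changes (AHR siRNA over control siRNA) of the 5 tested carbonic anhydrase genes with their SE, drawn at arbitrary heights over a histogram of all 14900 tested genes in bins of 0.25; red points were called by edgeR and grey ones were not. CA2 at -2.93 lay in the far lower tail and CA11 at 1.20 in the upper part, with CA12 and CA5B near the centre. The axis ends at -4.5 and 4.5, and the few genes beyond these values are not shown.

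The genes whose centred log2 CPM profile over the 6 libraries was most like that of CA2, among 10987 tested genes with a symbol and a mean of at least 5 CPM, were IL33, CD55 and ALPP. Their root mean square differences from CA2 were 0.222, 0.245 and 0.270 on the log2 scale. Closeness on this measure largely means a like difference between the groups. The values of the genes named here thus follow from how they were picked, and shared control was not tested. IL33, an alarmin gene, averaged 7.51 CPM with AHR siRNA and 50.5 CPM with control siRNA, and CD55, a membrane regulator of complement, 26.6 CPM and 149 CPM in that order. ALPP, an alkaline phosphatase gene, averaged 1.70 CPM and 12.8 CPM, and its value is uncertain because it has near-identical paralogs. For CA12 the closest were TMEM9, VPS37B and THG1L, at 0.0228, 0.0233 and 0.0246. For CA11, taken up after its values were seen, they were RPH3AL, RRAGB and NSMF, at 0.0362, 0.0394 and 0.0461, with log2 fold changes of 1.24, 1.18 and 1.22. For CA13, likewise, they were BLTP3B, SMAD5 and ARHGAP28, at 0.0448, 0.0457 and 0.0479.

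Genes that move bicarbonate and chloride across the membrane, the transport that carbonic anhydrases serve, were taken as a list. Of 22 genes listed, 12 were tested, and 7 were called higher, 1 lower and 4 neither, beside 30.0% higher and 30.1% lower among all tested genes. Under other settings of the processing 5 to 8 were called higher. There were 5 at an edgeR adjusted p under 0.01, and 5 without AHR siRNA replicate 3. The median log2 fold change was 0.28 against 0.01 for all tested genes, and with library totals alone it was 0.43 against 0.15. CFTR, the chloride and bicarbonate channel of secreting epithelia, rose to 59.8 ± 5.8 CPM with AHR siRNA, against 20.6 ± 0.66 CPM with control siRNA (SD, n = 3 each; log2 fold change 1.54, SE 0.09, edgeR adjusted p = 3.43e-11). The anion exchanger gene SLC4A3 rose to 240.1% of control, the sulfate and oxalate carrier gene SLC26A1 to 188% and the exchanger gene SLC26A6 to 143%. SLC26A2, a sulfate carrier gene, was the lower one at 76.3% (edgeR adjusted p = 0.00994), and no gene of the list was called lower with library totals alone, without control siRNA replicate 2 or without AHR siRNA replicate 2. SLC4A2 and SLC26A3 were chosen after their values were seen. SLC4A2, the exchanger gene with the highest CPM in the list, averaged 209 ± 5.1 CPM with AHR siRNA and 223 ± 6.6 CPM with control siRNA (edgeR adjusted p = 0.209). SLC26A3, the chloride and bicarbonate exchanger of the colon surface, had 0 counts with AHR siRNA and at most 3 in a control library.

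Genes that export protons and lactate were counted in the same way. Of 12 tested among 19 listed, 4 were called higher, 5 lower and 3 neither, or 9 of 12 called beside 60.1% of all tested genes. With library totals alone, 6 were higher and 4 lower. The median log2 fold change was 0.05, with 0.19 by library totals, -0.03 with no filter, 0.13 without control siRNA replicate 2 and 0.02 without AHR siRNA replicate 2, so no direction is given for the list. The lactate transporter gene SLC16A1 rose to 1112 ± 51 CPM with AHR siRNA, against 728 ± 18 CPM with control siRNA (SD, n = 3 each; log2 fold change 0.61, SE 0.07, edgeR adjusted p = 2.54e-07). SLC16A3, the lactate exporter of glycolytic cells, fell to 41.3% of control (log2 fold change -1.28, SE 0.07, edgeR adjusted p = 4.48e-11). The sodium-proton exchanger genes SLC9A3, of the brush border, and SLC9A5 rose to 198% and 146% of control, and SLC16A4 to 148%. SLC9A7, an exchanger gene of internal membranes, fell to 57.1%. NHERF1, which encodes a scaffold that binds SLC9A3 and CFTR, fell to 70.5%, and BSG, the chaperone of lactate transporters, to 81.4%.

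The genes of the hypoxia response, under which CA9 and CA12 are known, were called in both directions. Of 9 tested genes of the HIF factors and their control, 2 were called higher, 2 lower and 5 neither, or 4 of 9 called beside 60.1% of all tested genes. The median log2 fold change was -0.04, and its sign turned with library totals alone (0.10, with 3 higher and 1 lower), with upper-quartile factors (0.03) and without AHR siRNA replicate 1 (0.0073), while it was -0.09 without control siRNA replicate 1. HIF1A and EPAS1, which encode the HIF alpha subunits, were chosen after their values were seen. HIF1A averaged 215 ± 7.1 CPM with AHR siRNA and 225 ± 7.1 CPM with control siRNA (edgeR adjusted p = 0.359), and EPAS1 49.1 ± 6.2 and 53.3 ± 8.1 CPM in that order (edgeR adjusted p = 0.347). ARNT, the partner of both AHR and HIF1A, fell to 81.1% of control (log2 fold change -0.30, SE 0.08, edgeR adjusted p = 0.00256). EGLN3, a prolyl hydroxylase gene that HIF itself induces, fell to 43.6%, while VHL and HIF1AN, which encode a protein that marks HIF for degradation and an inhibitor of HIF, rose to 153% and 138%.

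Of 20 HIF target genes, all tested, 6 were called higher, 9 lower and 5 neither, beside 30.0% higher and 30.1% lower among all tested genes. The median log2 fold change was -0.20, and -0.05 with library totals alone. Library totals and upper-quartile factors each gave 7 higher and 7 lower. LDHA fell to 45.1% of control, the glucose transporter gene SLC2A1 to 70.9%, the lipase inhibitor gene ANGPTL4 to 42.8% and the mitophagy receptor gene BNIP3L to 72.9%. PDK1 rose to 171% of control, the MYC antagonist gene MXI1 to 160%, the histone demethylase gene KDM3A to 138% and ADM, which encodes adrenomedullin, to 140.3%. VEGFA, chosen after its value was seen, averaged 74.8 ± 4.0 CPM with AHR siRNA and 74.6 ± 3.7 CPM with control siRNA (SD, n = 3 each; edgeR adjusted p = 0.970). The log2 fold changes of the list ran from -1.21 for ANGPTL4 to 0.77 for PDK1. Any gene with little change lies inside that range, so nothing is read from CA12, at 0.08, lying there too.

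The genes known beside CA2 on the colon surface were taken as another list, and many of them gave too few counts to test. Of 25 listed, 12 were tested, and 4 were called higher, 5 lower and 3 neither, or 9 of 12 called beside 60.1% of all tested genes. The median log2 fold change was -0.10, and it was 0.05 with library totals alone and -0.32 with no filter. GUCA2B, MS4A12 and TMIGD1 were at 0 counts in all libraries, and GUCA2A, AQP8, CEACAM7, CLCA4 and FABP1 had at most 3 in any. SLC51B, a bile acid exporter subunit gene, fell to 0.349 ± 0.159 CPM with AHR siRNA, against 3.14 ± 0.67 CPM with control siRNA (SD, n = 3 each; log2 fold change -3.11, SE 0.36, edgeR adjusted p = 4.94e-07). It had 2, 6 and 6 counts with AHR siRNA, the first under the floor, and 45, 53 and 31 with control siRNA, so it passed the filter through the control libraries and its fold rests on few counts. MUC13 fell to 44.1% of control, DPP4 to 50.6% and CEACAM6 to 29.9%. The fold of CEACAM6 also rests on few counts, 6, 13 and 16 with AHR siRNA and 47, 46 and 27 with control siRNA. VIL1 rose to 448.6% of control, CEACAM1 to 364% and SLC9A3 to 198%. SLC51A, the other subunit of the bile acid exporter, stood at 148% with an adjusted p = 0.0377 by edgeR, a call that is lost at a threshold of 0.01. The list had 3 and not 4 higher calls there, with the DESeq2 Wald test, without control siRNA replicates 1 or 3 and without AHR siRNA replicates 1 or 2. KRT20, a keratin gene of mature colon epithelium chosen after its value was seen, averaged 59.4 ± 3.5 CPM with AHR siRNA and 61.5 ± 3.1 CPM with control siRNA (edgeR adjusted p = 0.561). CEACAM genes are close paralogs, so their separate values are uncertain.

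**Figure D4:**
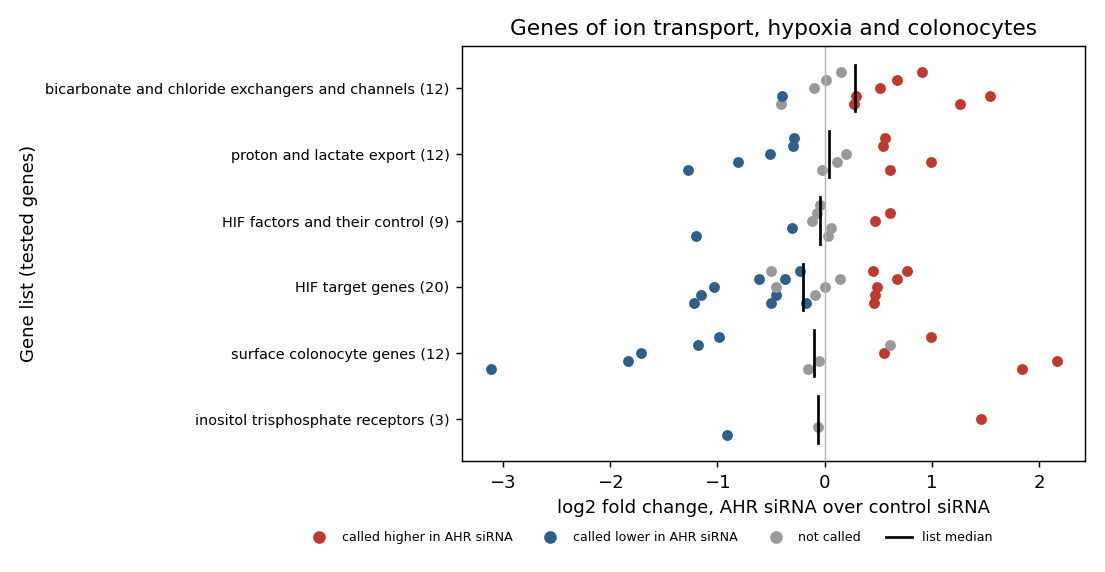
The log2 fold change (AHR siRNA over control siRNA) of each tested gene in 6 related lists, coloured by its edgeR call, with a line at each list's median; list sizes are in brackets and vertical offsets within a row only separate points. Points lie on both sides of 0 in every list, and the bicarbonate and chloride list has the highest median at 0.28.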

How the data were processed

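Per the labels, 3 libraries were made from DLD-1 cells with AHR siRNA and 3 with control siRNA. No label says that replicates came from separate cultures, so p-values cover only how far these libraries differ, and that spread may be technical. The authors deposited whole-number counts per Ensembl gene ID, without a header. HTSeq, TopHat and TopHat2 2.0.11, and the builds GRCh37 and hg19, are named per the submitters' processing notes without their roles, while some IDs belong to later annotations, so the build of the counts is uncertain. How strand and multiply mapped reads were handled is not stated in the labels.

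All 60483 genes were named from a table that held 56321 of the IDs, then filtered with filterByExpr, scaled by TMM and tested with edgeR 4.0.16 (glmQLFTest, group as the only term) in R 4.3.3. Benjamini-Hochberg adjustment ran over all 14900 tested genes, with calls at an adjusted p under 0.05. CPM uses TMM-adjusted sums over tested genes. SE is the log2 fold change divided by the root of F. Lengths and 3' UTRs came from GENCODE 29, promoters from RefSeq. The script was tested on simulated data. Members and lists were chosen with earlier results of these data known. In each list, up to 4 called genes per direction with the smallest p are named, plus genes stated as chosen later and genes at the floor. Profiles used a pseudocount of 0.01 CPM. Alternatives used DESeq2 1.42.0 and limma 3.58.1. Proteins were not analysed here. Floors cover counting error only.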

Additional observations from a re-analysis of the deposited data

How the results depend on the processing

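CA2, CA13 and CA11 kept their direction and their call under all 15 alternatives each. CA12 kept its sign under the same alternatives and was never called. The alternatives of scaling and filter were DESeq2 size factors, upper-quartile factors, library totals, no filter and at least 1 CPM in 3 libraries. The others were the DESeq2 Wald test, limma-voom, a replicate block, an adjusted p under 0.01, and each library left out. The log2 fold changes of CA2, CA13, CA11 and CA12 ran from -2.97 to -2.78, -0.78 to -0.55, 1.16 to 1.35 and 0.03 to 0.23 in that order. CA5B, never called, changed sign with library totals (0.10), upper-quartile factors (0.0293) and the counts of CA5BP1 added, an alternative chosen after the data were seen (0.0544), and ran from -0.13 to 0.0396 with 1 library left out. Library totals moved the median gene to 0.15, with 5885 genes called higher and 3205 lower, against 4474 and 4479 with TMM. The 1 bicarbonate and chloride gene called lower, SLC26A2, became 0 genes with library totals and ranged from 0 to 1 with 1 library left out. By longest transcript the shares were 11.9% (AHR siRNA) and 64.5% (control siRNA) for CA2 and 22.7% for CA11 in control siRNA. Whether same-numbered libraries pair was not settled. Their deviations correlated at 0.233, -0.0479 and 0.183, and 3 of 6 libraries matched their own number best. The replicate block called 9598 genes against 8953, and CA2 stood at -2.93. Low counts limit CA9 and CA8, at or under the floor, and CA14, which failed the filter with 5 to 14 counts a library.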
